A study of Homo sapiens with 9 samples.

Results

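The proteasome subunit genes were taken as every gene of the array whose probe sets carry exactly 1 gene symbol and whose symbol starts with PSMA, PSMB, PSMC or PSMD and a number, pseudogenes and antisense genes left out. This gave 36 of the 18132 genes measured, through 81 of 49293 probe sets. One of the 36, PSMC3IP, shares only the form of the symbol: it encodes HOP2, a partner of meiotic recombination, and was counted apart, which left 35 proteasome genes. They fell into 7 alpha ring genes, 7 standard beta ring genes, 4 inducible or thymic beta genes, 5 ATPases, 3 other genes of the base, 6 lid genes and 3 chaperones that assemble the base. PSMA6 was covered only by a probe set it shares with another symbol, and PSMC5, PSMD7 and PSMD13 were not named by the annotation used, so these 4 are not analysed here.

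The samples were 9 Affymetrix PrimeView arrays of Y79, a human retinoblastoma cell line grown in RPMI medium, in 3 groups of 3. Control cells had no particle, the GNPs group was given bare gold nanoparticles, and the GNPs-HDM2 group was given gold nanoparticles that carry an HDM2 (Human Double Minute 2) peptide, written here as the conjugate. The title of the study gives the aim of the conjugate as blocking the contact of p53 with HDM2, and the label on treatment spells the cells "Y97". Dose and time are not given in the sources used here, nor is the culture behind each array, and the spread behind each p-value is that of these arrays, which may be technical. RNA came from whole cultures, in which fewer cells of a type and less RNA per cell cannot be told apart.

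The proteasome is the cell's main protease for proteins tagged with ubiquitin. Its barrel, the core particle, is built of alpha rings that gate the entry and beta rings that hold the cutting sites, and its cap, the regulatory particle, has a base of ATPases that unfold the substrate and a lid that removes the ubiquitin chain. In immune cells, and in other cells after interferon, the catalytic beta subunits PSMB6, PSMB7 and PSMB5 are replaced by PSMB9, PSMB10 and PSMB8, which gives the immunoproteasome and favours peptides for class I antigen presentation. HDM2 is a ubiquitin ligase that sends p53 to the proteasome.

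Promoter sequences of 31 of the 36 genes were held in a RefSeq table (GRCh38.p14), with no entry for PSMA7, PSMB1, PSMB6, PSMB7 and PSMD4. The 250 bases before the start of transcription are shown for 4 genes that stand for the patterns described further on. PSMD12 (lid) and PSMC2 (ATPase) were among the furthest below Control, PSMB3 is a standard beta gene that moved with the bulk of bright genes, and PSMB9 is the inducible gene that rose. Capitals mark matches, on either strand, to an antioxidant response element core (TGACNNNGC), a CCAAT box (CCAAT), an ETS site core (CCGGAAGT) or a gamma-activated site (TTCNNNGAA). The stretches are PSMD12, chr17:67366578-67366827 on the minus strand, PSMC2, chr7:103347393-103347642 on the plus strand, PSMB3, chr17:38752491-38752740 on the plus strand, and PSMB9, chr6:32853942-32854191 on the plus strand.
PSMD12: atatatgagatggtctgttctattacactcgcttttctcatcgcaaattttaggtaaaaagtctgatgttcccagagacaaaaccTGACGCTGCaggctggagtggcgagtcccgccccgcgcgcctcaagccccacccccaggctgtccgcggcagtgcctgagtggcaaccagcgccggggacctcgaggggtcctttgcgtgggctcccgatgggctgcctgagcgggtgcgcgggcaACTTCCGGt
PSMC2: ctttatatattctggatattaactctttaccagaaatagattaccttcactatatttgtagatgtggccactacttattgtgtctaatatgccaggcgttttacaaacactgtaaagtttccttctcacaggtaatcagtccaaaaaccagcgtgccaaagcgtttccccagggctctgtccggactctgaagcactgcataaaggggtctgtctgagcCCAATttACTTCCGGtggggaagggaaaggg
PSMB3: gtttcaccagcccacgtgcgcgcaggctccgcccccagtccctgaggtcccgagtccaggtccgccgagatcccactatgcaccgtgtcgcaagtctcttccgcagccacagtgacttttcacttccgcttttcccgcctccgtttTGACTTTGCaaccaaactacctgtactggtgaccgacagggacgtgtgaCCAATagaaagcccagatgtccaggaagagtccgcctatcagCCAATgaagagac
PSMB9: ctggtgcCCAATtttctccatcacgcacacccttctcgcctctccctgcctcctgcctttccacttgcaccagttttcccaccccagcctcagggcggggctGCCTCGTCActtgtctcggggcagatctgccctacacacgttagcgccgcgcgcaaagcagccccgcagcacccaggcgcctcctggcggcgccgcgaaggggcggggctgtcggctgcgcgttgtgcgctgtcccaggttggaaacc

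The antioxidant response element core, a form of the site that NRF1 and NRF2 bind, was matched in 7 of the 31 genes, against 13.2% of 27305 genes with such a window. The 7 were PSMA4, PSMB3, PSMB9, PSMD3, PSMD5, PSMD9 and PSMD12, so genes that fell, genes that rose and a gene that did not pass the test all held it. The CCAAT box was matched in 16 of 31 (37.0% of all genes), the ETS site core in 4, namely PSMA8, PSMC2, PSMD8 and PSMD12 (4.1% of all genes), and the gamma-activated site in 6, namely PSMA2, PSMA8, PSMB5, PSMB8, PSMC4 and PSMD3 (8.1% of all genes). The motifs do not overlap in the 4 stretches shown, and a match is only a match of letters.

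Every value below is a log2 value relative to a baseline of its own probe set, so genes cannot be ranked by level and only differences between arrays are compared. A trace of the level is kept in the step size of the stored numbers, from which probe sets were sorted into dim, middle and bright classes (baseline log2 level 2 to 4, 4 to 8 and 8 to 16). Of the 81 member probe sets 58 were bright, 12 middle and 11 dim. On the conjugate arrays bright probe sets as a class were low, with medians of -1.73 to -0.26 per array against 0.00 to 0.03 on the Control arrays, and dim ones were high, with medians of 0.20 to 0.73. Differences are therefore given as deposited and, beside them, after the median of the level class was taken off on each array, which measures a gene against others of its class. The spiked hybridization controls (conjugate arrays 1.29 to 1.78, Control arrays -0.39 to -0.31) and poly-A controls (0.78 to 1.54 against -1.39 to -0.07) also moved with the conjugate arrays, as did the array's background probe sets (0.39 to 0.62 against -0.05 to 0.04). Their part in the results was not tested. Of 9 photoreceptor markers, 4 had a bright probe set (CRX, OTX2, NRL and PDE6H). As deposited, CRX, OTX2 and THRB fell with the conjugate and no other of the 9 passed the test given below. Of the rest RCVRN (0.24) and RXRG (0.42) pointed up, and NRL (-0.45), ARR3 (-0.36), GNGT2 (-0.88) and PDE6H (-0.42) pointed down. After level centring CRX, OTX2 and THRB stayed lower and PDE6H was higher (0.68). The summed deposited value of the 9 was -5.85 to 2.17 on conjugate arrays. On Control arrays it was 1.10 to 6.19 and on bare particle arrays 5.40 to 5.69. None of 3 pigment epithelium, 4 fibroblast and 5 blood cell markers had a bright probe set.

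With the conjugate, most genes of the standard proteasome were lower than in Control cells and the inducible beta genes were not. As deposited, 26 of 35 proteasome genes fell, 3 rose and 6 did not pass the test (limma, adjusted p under 0.05 over all genes). Over all 18132 genes 25.1% fell and 33.1% rose, but over the 1750 genes with bright probe sets only, 60.2% fell and 8.46% rose. The median difference of the 35 was -1.05, against -1.0 for those bright genes and 0.25 for all genes, so the general fall was about that of bright genes. After centring within level classes 10 of the 35 were lower and 3 higher, with a median of -0.09. The same setting called 22.1% of all genes lower and 24.0% higher, and 27.3% and 33.4% of the bright ones. The 10 of 35 lower were thus near the share of bright genes. All 10 genes lower on the second scale were also lower on the first, but of the 3 higher genes only PSMB9 was shared.

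Set against their level class, the subunit groups differed in where they lay. The standard beta ring lay at the middle of its level class, 3 of 5 ATPases, 2 of 3 other base genes, 3 of 6 lid genes and PSMA3 and PSMA4 fell below theirs, and PSMB9, PSMB10 and PSMD8 rose above. Among the 14 genes of the regulatory particle, 12 fell as deposited (median -1.43) and 8 after level centring (median -0.61), with 1 higher. Among the 13 standard genes of the core particle, all 13 fell as deposited (median -1.11) and 2 after level centring (median -0.02). Of all genes 25.1% were lower as deposited and 22.1% after level centring, and of genes with only bright probe sets 60.2% and 27.3%. Higher after level centring were 24.0% of all genes and 33.4% of bright ones. The same shares stand beside the counts of each subunit group below. Within each array, the median of the regulatory genes minus that of the standard core genes was -0.53, -0.70 and -0.23 on the conjugate arrays as deposited. On the Control arrays it was -0.13, -0.25 and -0.06, and on the bare particle arrays it was -0.05, -0.03 and -0.04. The conjugate and Control values overlapped on this scale, but not after level centring (-1.0 to -0.41 against -0.25 to -0.04). These medians are a description with no test.

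**Figure D1:**
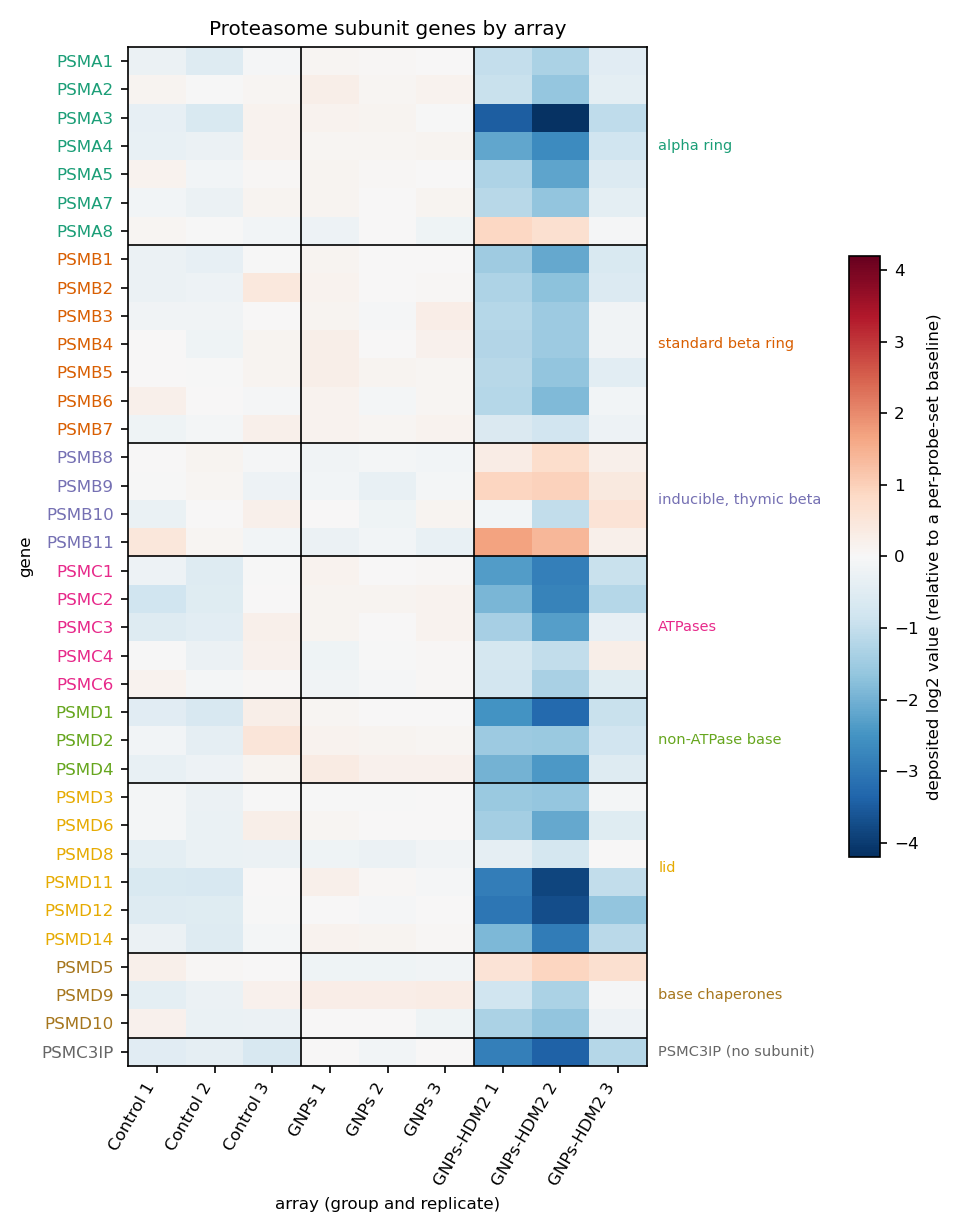
Deposited log2 values of the 36 genes (rows, ordered by subunit group, with names coloured by group) on the 9 arrays (columns), with the value shown by colour. Conjugate replicate 2 is the lowest and replicate 3 the least low of the conjugate arrays for the 26 genes that fell, while PSMB8, PSMB9, PSMB11 and PSMD5 lie above 0 on all 3.

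The alpha rings gate the entry of the core. Of the 7 alpha genes 6 fell as deposited, with a group median of -1.05, and PSMA3 and PSMA4 also fell against their level class. PSMA3 read -0.33, -0.63 and 0.15 on the Control arrays, 0.15, 0.11 and -0.01 on the bare particle arrays, and -3.47, -4.16 and -1.06 on the conjugate arrays. The conjugate values lay below all Control values, and replicate 3 lay nearest to them. The difference was -2.63 ± 0.63 (SE, n = 3 in each group, adjusted p = 0.00854), a 6.18-fold fall and the largest among all member genes, and -1.54 ± 0.37 after level centring. Its 2 probe sets gave -2.97 and -2.29.

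PSMA4 fell by 1.76 on the log2 scale, with adjusted p = 0.00591, the smallest of the alpha genes. Its Control values were -0.30, -0.24 and 0.16 and its conjugate values -2.17, -2.65 and -0.84. Its 3 probe sets differed, at -2.83, -1.37 and -1.08, and the first of them gave its fall against the level class (-0.66 for the gene). PSMA1, PSMA2, PSMA5 and PSMA7 fell by 0.66 to 1.38 as deposited and were between -0.36 and 0.09 after level centring, where none passed. The groups overlapped for PSMA1, whose bright probe set was at -1.36 as deposited and whose dim one was at 0.04. PSMA8, the alpha gene of the testis, had 1 dim probe set and read 0.86, 0.67 and -0.04 on the conjugate arrays, a difference of 0.51 ± 0.22 that did not pass (adjusted p = 0.0743).

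All 7 genes of the standard beta ring fell as deposited, between -1.22 (PSMB1) and -0.52 (PSMB7), and none passed after level centring, where they lay between -0.48 (PSMB2) and 0.34 (PSMB7). Of its 18 bright probe sets none lay below the lower quartile of all bright probe sets (-1.85) and 1 lay above the upper quartile (-0.35). Against this, 3 of 5 bright probe sets of the ATPases, 6 of 14 of the lid, 2 of 4 of the other base genes and 3 of 10 of the alpha rings lay below the lower quartile. After level centring the median of the beta ring was 0.05, 0.08 and 0.01 on the conjugate arrays, against -0.15, -0.14 and 0.07 on the Control arrays.

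PSMB5 carries the chymotrypsin-like site and is the target of the drug bortezomib. It read 0.01, -0.03 and 0.11 in Control, 0.26, 0.11 and 0.07 with bare particles, and -1.17, -1.65 and -0.43 with the conjugate. The conjugate values lay below all others, a 2.17-fold fall (-1.11 ± 0.26, adjusted p = 0.0082, the smallest of the ring), and its 5 probe sets lay between -1.28 and -0.83. PSMB6, which carries the caspase-like site, read 0.22, 0.00 and -0.05 in Control and -1.21, -1.85 and -0.11 with the conjugate. It fell by 1.11 (adjusted p = 0.0243), and conjugate replicate 3 lay just below the lowest Control array. PSMB7, with the trypsin-like site, read -0.17, -0.09 and 0.22 in Control and -0.60, -0.81 and -0.20 with the conjugate. It fell by 0.52 (adjusted p = 0.039), but its 5 probe sets differed in sign, with 3 bright ones at -1.19 to -1.03, a bright one at 0.61 and a middle one at 0.10. PSMB5 and PSMB6 were at -0.02 after level centring, and PSMB7 was at 0.34 (adjusted p = 0.114). On that scale the bright probe set of PSMB7 that pointed up was at 1.70.

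PSMB1, which holds no cutting site, had the largest fall of the ring (-1.22 ± 0.31, adjusted p = 0.011). It read -0.24, -0.33 and -0.02 in Control and -1.49, -2.15 and -0.63 with the conjugate, with no overlap. PSMB2, PSMB3 and PSMB4, also without a cutting site, differed by -1.19, -0.85 and -0.96, and the groups overlapped for PSMB3 and PSMB4, since conjugate replicate 3 was at -0.15 for both.

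None of the 4 inducible and thymic beta genes fell as deposited, and PSMB9 and PSMB11 rose. Over all genes 25.1% fell and 33.1% rose. PSMB8 and PSMB11 had only dim probe sets, and PSMB9 had dim and middle ones. Of genes with only dim probe sets 0.161% fell and 51.2% rose as deposited. PSMB9, the counterpart of PSMB6, read -0.03, 0.09 and -0.21 in Control, -0.12, -0.31 and -0.09 with bare particles, and 0.89, 0.96 and 0.41 with the conjugate. All conjugate values lay above all others, a 1.75-fold rise (0.81 ± 0.18, adjusted p = 0.00706), and the gene was also higher against its level class (0.59 ± 0.14, adjusted p = 0.00982). Its 2 middle probe sets gave 1.57 and 0.71, and its dim one gave 0.14.

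PSMB8, the counterpart of PSMB5, read 0.03, 0.11 and -0.04 in Control, -0.16, -0.07 and -0.10 with bare particles, and 0.32, 0.75 and 0.22 with the conjugate. The groups did not overlap, but the difference of 0.39 ± 0.17 did not pass (adjusted p = 0.067). Its 3 probe sets were all dim, the dim class as a whole differed by a median of 0.50, and after level centring PSMB8 was at -0.09. PSMB10, the counterpart of PSMB7, read -0.29, 0.00 and 0.21 in Control and -0.12, -1.02 and 0.57 with the conjugate, so that the groups overlapped and the difference was -0.16 ± 0.34 (adjusted p = 0.677). Its 3 probe sets were all bright, and against that class PSMB10 was the highest of the 35 genes, at 0.93 ± 0.17 (adjusted p = 0.00305). Level-centred, it read 1.14, 0.71 and 0.83 on the conjugate arrays and -0.29 to 0.18 on the Control arrays. PSMB11, the catalytic subunit of the thymic epithelium, had 1 dim probe set and rose by 0.96 ± 0.34 (adjusted p = 0.0357). Its conjugate values of 1.70, 1.39 and 0.20 overlapped its Control values of 0.47, 0.07 and -0.13, and level-centred it was at 0.47 and did not pass (adjusted p = 0.167). Its call was also lost when any 1 of 7 of the 9 arrays was left out.

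Within an array the exchange partners can be set side by side as differences from their own baselines. PSMB9 minus PSMB6 was 2.10, 2.81 and 0.52 on the conjugate arrays, against -0.25 to 0.09 on Control and -0.26 to -0.18 on bare particle arrays. The 3 conjugate values lay above all others, and did so after level centring too (0.61, 0.74 and 0.17 against -0.26 to 0.09). PSMB8 minus PSMB5 was 1.49, 2.41 and 0.66 on the conjugate arrays, against -0.15 to 0.15 on Control arrays, but -0.33, -0.06 and 0.20 after level centring, where the groups overlapped. PSMB10 minus PSMB7 was 0.48, -0.22 and 0.76, against -0.12 to 0.09 on Control arrays, and overlapped. After level centring it was 0.74, 0.16 and 0.82 and lay above the Control arrays (-0.12 to 0.09). PSMB7 in this pair averages 5 probe sets that differ in sign, 1 of which read 0.60, 1.45 and 0.13 on the conjugate arrays as deposited. These differences are descriptions of the arrays with no test.

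**Figure D2:**
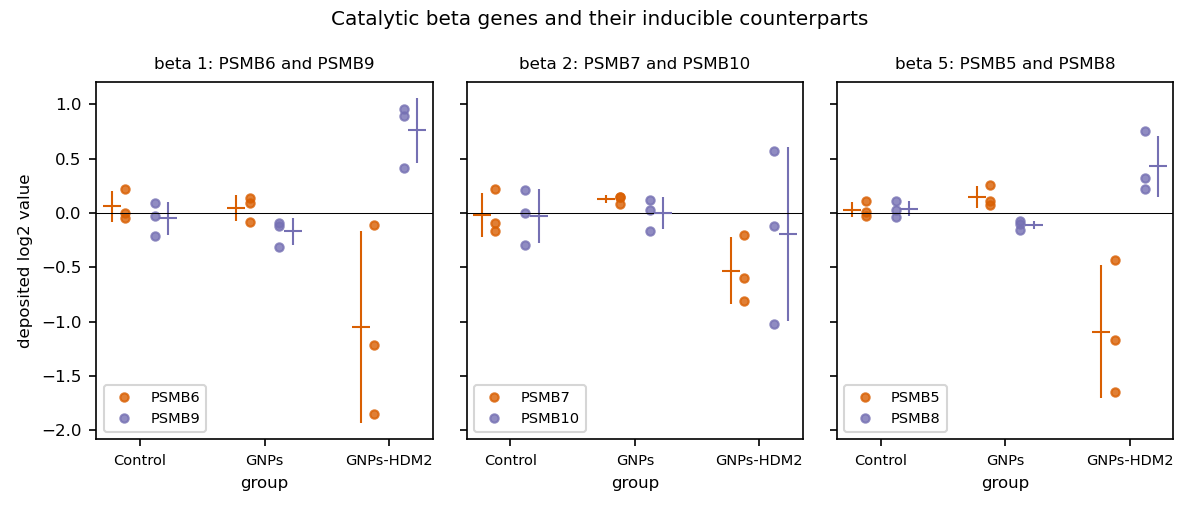
Deposited log2 values of the 3 catalytic beta genes and their inducible counterparts in each group. Points are the 3 arrays and the bar beside them is the mean ± SD. PSMB9 and PSMB8 lie above their Control values on the conjugate arrays while PSMB6 and PSMB5 lie below theirs.

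PSMB8 and PSMB9 lie on chromosome 6 in the order TAP2, PSMB8, TAP1, PSMB9, HLA-DMB, among the genes of class I and class II antigen presentation. Of 11 measured genes of class I antigen processing, 8 rose with the conjugate as deposited and 1 fell (median 0.67, against 0.25 for all genes), and 5 rose after level centring (median 0.43, against 0.07). HLA-E (0.69 ± 0.16, adjusted p = 0.00775), IRF1 (0.77 ± 0.20, adjusted p = 0.0108), an interferon-induced activator of these genes, and TAPBP (0.67 ± 0.19, adjusted p = 0.015), a chaperone of peptide loading, had the smallest adjusted p, and all 3 also rose after level centring (0.65, 0.59 and 0.56). B2M, the light chain of class I molecules, was the gene that fell (-1.12 ± 0.34), and it did not pass after level centring (-0.19). TAP1, a chain of the peptide transporter next to PSMB9, rose by 0.50, and TAP2 was at 0.67 and did not pass (adjusted p = 0.0813). Over all genes 33.1% rose as deposited and 24.0% after level centring. Some markers of other cell types also moved as deposited. All 5 measured blood cell markers (PTPRC, CD3D, CD68, CD14 and AIF1) rose as deposited, where 51.2% of genes with only dim probe sets did, and CD68 (0.68) and AIF1 (0.43) also rose after level centring. Their summed deposited value was 2.23 to 3.97 on conjugate arrays, -0.25 to 0.48 on Control and -0.77 to -0.13 on bare particle arrays. Of 3 pigment epithelium markers 2 rose as deposited, with sums of 1.19 to 1.62 on conjugate, -0.37 to 0.26 on Control and -0.47 to -0.04 on bare particle arrays. None of the 3 passed after level centring (RPE65 0.40, BEST1 0.20 and TYRP1 -0.25). Of 4 fibroblast markers 2 rose, with sums of 0.71 to 2.56, 0.06 to 0.35 and -0.69 to -0.22. After level centring only COL1A1 (0.53) passed, while COL1A2 (0.07), DCN (0.05) and LUM (-0.42) did not. Of 3 Mueller glia markers GLUL fell and SLC1A3 rose, with sums of -0.41 to 0.72, -0.12 to 0.65 and -0.27 to 0.06. After level centring GLUL stayed lower (-0.49) and SLC1A3 was at -0.05 and did not pass. PTPRC, CD3D and CD14 had only dim probe sets, and the part of any of these markers in the result was not tested.

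The ATPases of the base unfold the substrate. Of the 5 measured 4 fell as deposited, and PSMC1, PSMC2 and PSMC6 also fell against their level class. PSMC1 read -0.22, -0.53 and -0.01 in Control and -2.33, -2.88 and -0.95 with the conjugate. The groups lay apart, a 3.48-fold fall and the largest and best supported of the group as deposited (-1.80 ± 0.40, adjusted p = 0.00649). After level centring its probe sets differed, at -1.12 and -0.30. PSMC2, whose promoter is shown above, read -0.83, -0.51 and 0.03 in Control and -1.91, -2.82 and -1.21 with the conjugate, again with no overlap (-1.54 ± 0.36, and -1.37 ± 0.32 after level centring). Its bright probe set gave -2.87, its middle one -1.74 and its dim one -0.01. PSMC6 was at -0.93 as an average of a bright probe set at -2.22 and a dim one at 0.37. PSMC3 fell by 1.09 as deposited and was at 0.01 after level centring. PSMC4, with 2 middle probe sets, was at -0.49 and -0.57 on the 2 scales and passed on neither (adjusted p = 0.164 and 0.148).

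The 3 other genes of the base all fell. PSMD1 and PSMD2 are the large scaffolds that dock ubiquitin receptors and shuttles, and PSMD4 is itself a ubiquitin receptor. PSMD1 read -0.46, -0.68 and 0.24 in Control and -2.50, -3.26 and -0.93 with the conjugate (-1.93 ± 0.49, adjusted p = 0.0102). PSMD2 read -0.13, -0.39 and 0.52 in Control and -1.52, -1.57 and -0.79 with the conjugate (-1.29 ± 0.27, adjusted p = 0.00522). Neither gene's groups overlapped, and both were also lower after level centring (-0.84 and -0.98). On that scale the middle probe sets of PSMD2 were at -1.94 and -0.85, but its bright one was at -0.14. PSMD4 fell by 1.52 as deposited and was at -0.43 after level centring (adjusted p = 0.0587).

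Of the 6 lid genes 5 fell as deposited (-2.45 to -0.05 over the 6), and 3 fell and 1 rose after level centring (-1.64 to 0.65). PSMD12, a scaffold of the lid, read -0.53, -0.50 and -0.01 in Control, 0.03, -0.05 and 0.01 with bare particles, and -3.02, -3.72 and -1.67 with the conjugate. The conjugate values lay well below all others, a 5.47-fold fall (-2.45 ± 0.42, adjusted p = 0.00279), and its 4 probe sets, all bright, gave -2.77 to -2.14. After level centring it was at -1.36 ± 0.18 (adjusted p = 0.00102), the smallest adjusted p of any member in this comparison on either scale. PSMD11, which braces the lid against the core, read -0.65, -0.68 and 0.00 in Control and -2.90, -3.85 and -1.03 with the conjugate (-2.15 ± 0.56, adjusted p = 0.0116). Level-centred it was at -1.64, a value that rests on 1 probe set near the border of the middle and bright classes: with that one taken as bright, PSMD11 was at -1.16 (adjusted p = 0.0185).

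PSMD14, the deubiquitinase that removes the chain, read -0.25, -0.55 and -0.07 in Control and -1.90, -2.94 and -1.12 with the conjugate. It fell 3.25-fold with no overlap (-1.70 ± 0.37, adjusted p = 0.00607), and by 0.61 after level centring. Its 2 probe sets were at -2.23 and -1.17 as deposited, and at -1.13 and -0.08 after level centring. PSMD3 and PSMD6 fell by 0.99 and 1.33 as deposited and were at 0.11 and -0.24 after level centring. The groups overlapped for PSMD3, whose probe sets were at -1.67, -0.65 and -0.64 as deposited. PSMD8 went against the rest of the lid. It read -0.42, -0.27 and -0.24 in Control and -0.37, -0.73 and 0.03 with the conjugate, which overlap (-0.05 ± 0.20, adjusted p = 0.832). After level centring it was higher (0.65 ± 0.12, adjusted p = 0.0034). Its bright probe sets were at -0.75 and -0.41 and its middle one at 1.02.

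**Figure D3:**
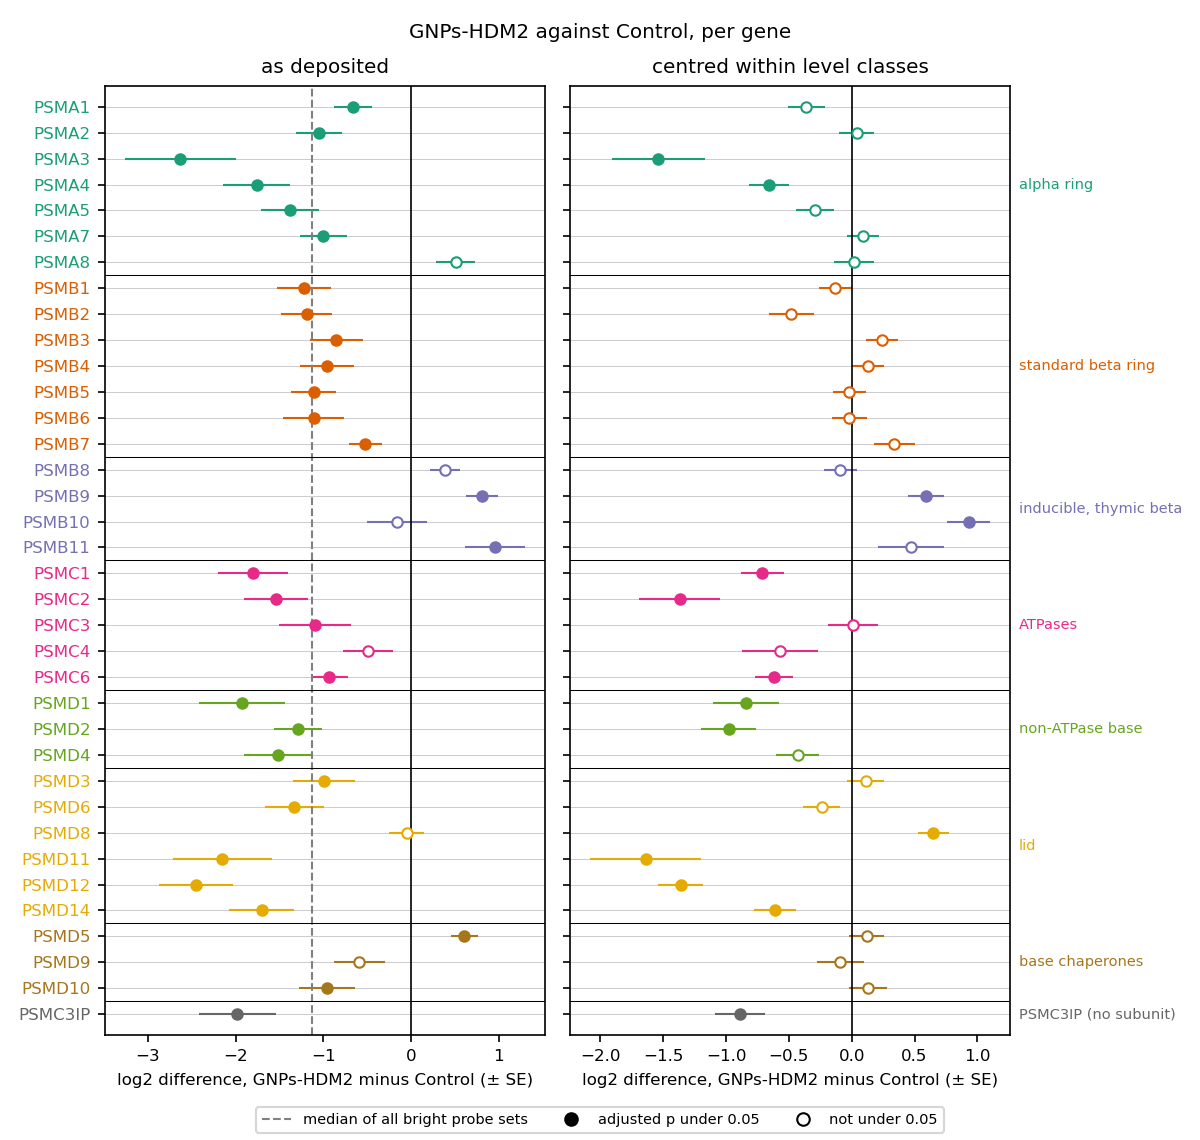
Log2 difference of GNPs-HDM2 minus Control for each gene, as deposited (left) and against the level class of each probe set (right). Bars are ± SE from the fit, filled points passed at adjusted p under 0.05, and the dashed line is the median of all bright probe sets (-1.13). The standard beta genes lie near that line except PSMB7 (-0.52), PSMA3, PSMD11 and PSMD12 lie furthest to the left, and the inducible beta genes lie to its right.

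The 3 chaperones that put the base together, none of them part of the finished particle, went different ways. PSMD5 read 0.22, 0.06 and 0.03 in Control, -0.18, -0.17 and -0.15 with bare particles, and 0.57, 0.89 and 0.68 with the conjugate. All conjugate values lay above all others, a 1.52-fold rise (0.61 ± 0.15, adjusted p = 0.00912). Its 2 probe sets were dim, at 0.58 and 0.64 against a class median of 0.50, and level-centred it was at 0.12. PSMD10, known as gankyrin and as a binding partner of HDM2, fell by 0.96 ± 0.32 (adjusted p = 0.0297), with overlapping groups, and was at 0.13 after level centring. PSMD9 was at -0.59 ± 0.29 and did not pass (adjusted p = 0.099). PSMC3IP, which is no proteasome gene, read -0.49, -0.37 and -0.66 in Control and -2.87, -3.40 and -1.20 with the conjugate (-1.98 ± 0.44, adjusted p = 0.0067).

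**Figure D4:**
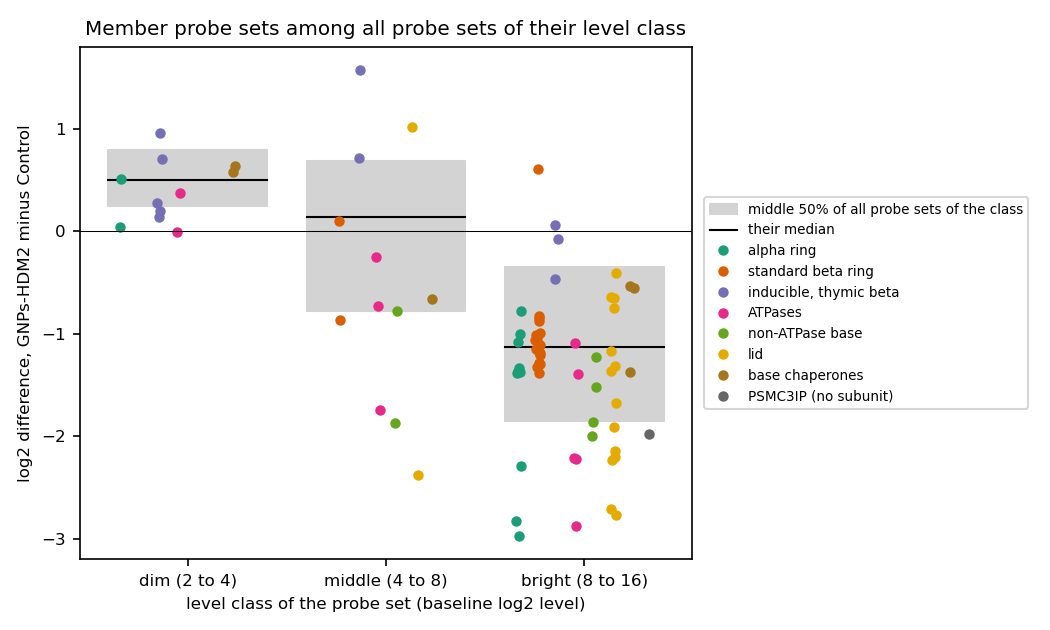
Log2 difference of GNPs-HDM2 minus Control for the 81 member probe sets, by the level class of the probe set and coloured by subunit group. The grey band runs from the lower to the upper quartile of all probe sets of the class and the line is their median (0.50, 0.14 and -1.13 for dim, middle and bright). The bright probe sets of the standard beta ring sit inside the band except 1 of PSMB7 at 0.61, and those of the lid and the ATPases reach below the band.

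The 3 conjugate arrays differed in degree. In all 26 genes called lower, conjugate replicate 2 was the lowest, replicate 1 came next and replicate 3 was nearest to Control, an order that the median of all bright probe sets shared (-1.73, -1.25 and -0.26). Of the 26 genes, 20 had every conjugate value below every Control value. Over all genes 23.9% lay apart in this direction. In the other direction PSMB8, PSMB9 and PSMD5 lay apart (36.0% over all genes). In 21 of the 26 genes Control replicate 3 was the highest Control array. Without that array 17 of the 35 genes fell, without conjugate replicate 3 it was 28, and without conjugate replicate 1 or 2 it was 18. With quantile normalization, which forces 1 distribution on all arrays, 1 gene fell and 0 rose (median -0.26). The share of all genes called under it was not taken.

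**Figure D5:**
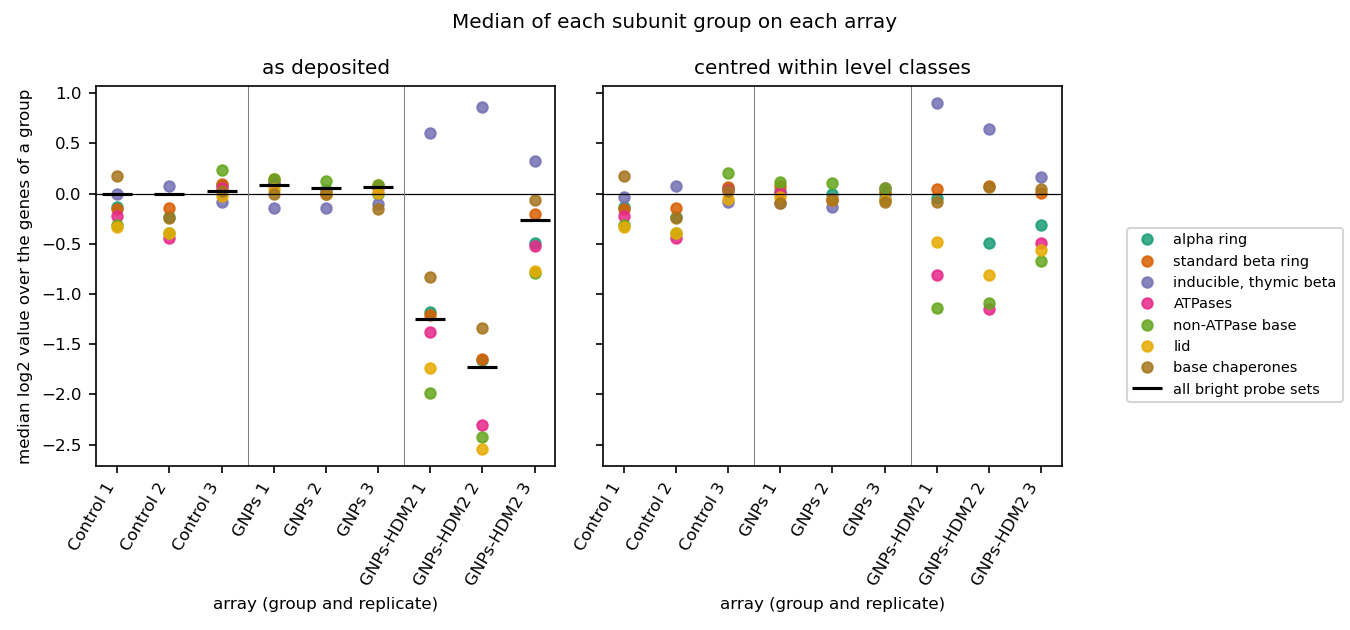
Median log2 value of each subunit group on each array, as deposited (left, with the median of all bright probe sets as a black dash) and after centring within level classes (right). On the right the standard beta ring stays at 0.01 to 0.08 on the conjugate arrays. The other base genes lie at -1.14 to -0.67, the ATPases at -1.15 to -0.49 and the lid at -0.81 to -0.48. The group of inducible and thymic beta genes, which includes PSMB11, lies at 0.17 to 0.90.

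With bare gold nanoparticles no proteasome gene passed the threshold. None of the 35 fell and none rose against Control by limma, as deposited or after level centring. The fit pooled the spread of each gene over all groups, the conjugate arrays included. As deposited, PSMD12 had an SE of 0.42, with SDs of 0.29 in Control, 0.04 with bare particles and 1.04 with the conjugate. PSMA3 had an SE of 0.63, with SDs of 0.39, 0.08 and 1.63. The lack of calls therefore does not show that bare particles left these genes unchanged. At the same threshold 0.0% of all genes fell and 0.0221% rose as deposited, and 0.0% and 0.0331% after level centring. At an unadjusted p under 0.05 the counts of the 35 as deposited were also 0 and 0. Of all 18132 genes only 373 fell and 599 rose at that p, so few of any 35 genes would pass. The median difference was 0.12, against -0.06 for all genes and 0.09 for bright genes. PSMC2 had the largest difference (0.56 ± 0.36, adjusted p = 0.864), with 0.12, 0.11 and 0.14 on the bare particle arrays against -0.83, -0.51 and 0.03 in Control. PSMB11 was the lowest, at -0.36 ± 0.34 (adjusted p = 0.877). In 7 genes all bare particle values lay above all Control values (PSMA1, PSMB1, PSMC1, PSMC2, PSMD4, PSMD9 and PSMD14), where 12.4% of all genes did, and in 2 (PSMB8 and PSMD5) all lay below, where 21.5% did. With quantile normalization 4 of the 35 were higher with bare particles. The share of all genes called under that normalization was not taken, so this count has no background beside it.

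The conjugate against the bare particle, a comparison that uses the same conjugate arrays as the one against Control, gave 27 genes lower and 5 higher. Over all genes 29.1% fell and 43.2% rose, and over bright genes 67.0% and 10.1%. After level centring 14 were lower and 4 higher, where 26.8% and 31.3% of all genes were. The 1 gene that fell here and not against Control was PSMD9, which read 0.29, 0.28 and 0.32 with bare particles and -0.83, -1.34 and -0.06 with the conjugate (-1.04 ± 0.29, adjusted p = 0.0103). PSMD12 fell by 2.80 ± 0.42 (adjusted p = 0.000901) and PSMA3 also fell (-2.98 ± 0.63, adjusted p = 0.00305). The genes that rose were PSMA8 (0.62), PSMB8 (0.54 ± 0.17, adjusted p = 0.0163), PSMB9 (0.93 ± 0.18, adjusted p = 0.00233), PSMB11 (1.32) and PSMD5 (0.87). In 27 genes all conjugate values lay below all bare particle values (30.5% of all genes) and in 4 all lay above (45.9%).

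Genes that work with the proteasome were read from the same fit, and their counts stand beside 25.1% of all genes and 60.2% of bright genes lower as deposited, and 22.1% and 27.3% after level centring. Of 6 measured regulators and remaining subunits, 5 fell with the conjugate against Control as deposited and ADRM1 rose (median -0.72, against 0.25 for all genes). After level centring 2 were lower and 3 higher (median 0.07, also the value for all genes). ADRM1, the ubiquitin receptor at the tip of the base, read -0.25, -0.41 and -0.38 in Control and 0.07, 0.13 and 0.16 with the conjugate, with no overlap (0.47 ± 0.14, adjusted p = 0.0187). It also rose after level centring, by 1.17 (adjusted p = 0.00267). PSME4, an activator of the core, fell by 1.14 (adjusted p = 0.00922) and PSME3, another, by 0.92 (adjusted p = 0.0168), and both also fell after level centring (-0.89 and -1.0). PSME1, a chain of the activator that works with the immunoproteasome, fell by 0.76 (adjusted p = 0.0453) but was higher by 0.33 after level centring.

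Of 6 assembly factors 4 fell as deposited (median -1.03) and 3 after level centring (median -0.46), a share as deposited near the 60.2% of bright genes. PSMG1 and PSMG2, the pair that starts the alpha ring, both fell (-2.69 ± 0.58, adjusted p = 0.00599, and -1.74 ± 0.32, adjusted p = 0.00366). PAAF1, which binds free ATPases, fell by 1.07 ± 0.20 (adjusted p = 0.00352). These 3 were also lower after level centring (-1.60, -0.65 and -0.76). POMP, the chaperone of beta ring maturation, read -0.26, -0.14 and 0.18 in Control and -1.21, -1.58 and -0.39 with the conjugate (-0.98 ± 0.27, adjusted p = 0.0142) and was at -0.28 after level centring, where it did not pass.

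NFE2L1 encodes NRF1, the factor that raises proteasome genes when the proteasome is impaired. It read 0.11, -0.08 and -0.20 in Control and 0.20, 0.56 and -0.21 with the conjugate, with overlapping groups (0.24 ± 0.20, adjusted p = 0.308). Of the 5 measured genes of its list, NGLY1, the enzyme that processes NRF1, fell by 2.00 ± 0.30 (adjusted p = 0.00197), NFE2L2, which encodes NRF2, fell by 2.25 ± 0.31 (adjusted p = 0.00149), and MAFG, a partner of both factors, rose by 0.49 (adjusted p = 0.0417). The same 3 passed after level centring.

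Of 10 shuttles, deubiquitinases and parts of the unfoldase complex, 8 fell as deposited (median -1.41) and 6 after level centring (median -1.02), with 1 higher, where 60.2% and 27.3% of bright genes were lower. UBQLN2 and UBQLN1, shuttles that bring ubiquitinated proteins to the proteasome, both fell (-1.95 ± 0.31, adjusted p = 0.00222, and -1.79 ± 0.31, adjusted p = 0.00278). USP14, a deubiquitinase bound to the base, fell by 1.82 ± 0.33 (adjusted p = 0.00336). All 3 also fell after level centring (-1.77, -1.48 and -1.31). Of 3 measured genes of ubiquitin supply and activation, UBA6 fell (-0.60 ± 0.16, adjusted p = 0.0129), and UBB, a ubiquitin gene, was at -0.20 as deposited and higher by 0.89 after level centring. None of the genes of these lists passed in the comparison of bare particles with Control, where the spread was also pooled with the conjugate arrays.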

How the data were processed

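RNA of Y79 cells was measured on 9 PrimeView arrays, which read biotin-labelled cRNA made from total RNA per the labels' protocols. The deposited values are on a log scale, taken here as log2, relative to a baseline per probe set (59.69% of probe sets hold an exact 0 on at least 1 array). The tool that summarised the probes is not given in the sources used here. The table held 49395 probe sets, 102 of them spiked or other controls of the array that were not tested. Of the rest, 44988 carried 1 gene symbol in the platform annotation, 1832 several and 2473 none. A gene was the mean of its probe sets with 1 symbol. Differences were fitted on all 9 arrays with limma 3.58.1 in R 4.3.3 (lmFit and eBayes, no block) and adjusted over 18132 genes by Benjamini-Hochberg, with a threshold of 0.05. The script was tested on simulated data. Level classes (15175 dim, 24297 middle, 9183 bright and 638 unclassed probe sets) came from the step of the 5 stored values nearest 0. All members are accounted for. For pathway lists, the 3 genes with the smallest adjusted p in each direction could be named, and other genes were named for their role after their values were seen. The members and lists were chosen with earlier results of these data known. Deviations of same-numbered Control and GNPs-HDM2 arrays from their group means correlated at r = 0.156, 0.107 and 0.29. Control replicate 1 with GNPs-HDM2 replicate 2, of unlike numbers, gave 0.209, so these values do not show that the numbers mark pairs. The labels do not say what a number marks. The main fit used no pairing, and the number entered only as a block in an alternative fit. In the other comparisons r of same-numbered arrays was -0.0565 to 0.103. Alternatives covered normalization, centring, dim probe sets, probe set types and summaries, the replicate block, the arrays entering the fit, array weights, trend and leaving out each array. The number of arrays (3 in each group) limits the precision.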

Additional observations from a re-analysis of the deposited data

How the results depend on the processing

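For the conjugate against Control (26 lower, 3 higher, median -1.05), quantile normalization gave 1, 0 and -0.26, and level centring 10 lower, 3 higher and -0.09. Leaving out 1 array gave 17 to 28 lower, 2 to 5 higher and medians of -1.44 to -0.72, with 17 lower without Control replicate 3 and 5 higher without GNPs-HDM2 replicate 3. Without dim probe sets 1 rose, and with a trend and robust fit 5 rose. A fit on only the 2 groups compared gave 18 lower and 2 higher, and array weights per group gave 22 lower and 2 higher. The next settings were chosen after seeing the data. Level centring without dim probe sets gave 10 lower (median -0.24), without 1 GNPs-HDM2 array 9 to 14 lower and 3 to 5 higher (medians -0.14, -0.13 and -0.09), on only the groups compared 8 lower (-0.09), and with classes read from 4 stored values 12 lower (-0.16). For bare particles against Control (0 and 0, median 0.12), quantile normalization gave 4 higher and 0.39, and leaving out 1 array gave 0.09 to 0.25. The counts with quantile normalization have no share of all genes beside them. For the conjugate against bare particles (27 lower, 5 higher, median -1.14), level centring gave 14 lower and -0.26, and without dim probe sets 1 rose. Leaving out 1 array gave 3 to 5 higher, with 3 without GNPs replicate 1. Level centring without dim probe sets gave 14, 3 and -0.31, without 1 GNPs-HDM2 array 12 to 15, 3 to 5 and -0.33, -0.27 or -0.15, on only the groups compared 14, 3 and -0.26, and from 4 values 15 lower and -0.38.

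Some genes changed sign. In the conjugate against Control these were, with quantile normalization, PSMA1 (0.16), PSMB10 (0.09), PSMD8 (0.42) and PSMD9 (0.06). With level centring they were PSMA2 (0.04), PSMA7 (0.09), PSMB3 (0.24), PSMB4 (0.13), PSMB7 (0.34), PSMB8 (-0.09), PSMB10 (0.93), PSMC3 (0.01), PSMD3 (0.11), PSMD8 (0.65) and PSMD10 (0.13). With only the most specific probe set types PSMD8 was at 0.30, and leaving out 1 array gave -0.54 to 0.25 for PSMB10 and -0.24 to 0.14 for PSMD8, above 0 without GNPs-HDM2 replicate 2. In bare particles against Control they were PSMA5 (-0.03), PSMB10 (-0.04) and PSMD10 (-0.01) with level centring, PSMB6 (0.07) and PSMC4 (0.11) with quantile normalization, PSMB8 (0.06) with the median of probe sets and PSMC6 (0.00) without dim ones. Leaving out 1 array gave values of either sign for PSMA5 (-0.04 to 0.10), PSMB2 (-0.04 to 0.30), PSMB6 (-0.06 to 0.07), PSMB10 (-0.11 to 0.14), PSMC4 (-0.12 to 0.08), PSMD2 (-0.07 to 0.38), PSMD6 (-0.05 to 0.22) and PSMD10 (-0.03 to 0.20). In the conjugate against bare particles they were, with level centring, PSMA2 (0.02), PSMB3 (0.10), PSMB4 (0.03), PSMB6 (0.06), PSMB7 (0.25), PSMB8 (-0.03), PSMB10 (0.97), PSMD3 (0.08), PSMD8 (0.57) and PSMD10 (0.14). With quantile normalization PSMB10 was at 0.02 and PSMD8 at 0.30, with the most specific types PSMD8 was at 0.16, and leaving out 1 array gave -0.57 to 0.23 for PSMB10 and -0.37 to 0.02 for PSMD8. The cause was not tested.

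With the replicate number as a block the counts were as without it (26 and 3, 0 and 0, 27 and 5), and the block changed no call of a member as deposited.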
